A study of Homo sapiens with 6 samples.

Results

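The 30 genes described here encode the enzymes that carry glucose to lactate, together with the isozymes of each step, which are related proteins that catalyze the same reaction. They were chosen by gene symbol, with earlier results of these data known, so the counts and medians below describe them only. All 30 were found among the 44591 genes listed for each library. They were sorted into 13 enzyme steps, of which 8 had at least 2 isozymes abundant enough to compare. The data came from A2780, a human ovarian cancer cell line of wild-type genotype, grown in DMEM with 10% fetal bovine serum. Polyadenylated RNA was sequenced in 3 libraries of untreated cells and 3 libraries of cells to which human recombinant CRMP2 (r-CRMP2) had been added at 40 ng/ml, and both groups were labelled 48 h. CRMP2 is collapsin response mediator protein 2, a cytosolic protein best known for binding tubulin in growing axons. The study asked how this protein acts on ovarian cancer cells from outside, and the comparison below gives the mRNA of each glycolytic enzyme with and without it. No vehicle or inactive protein is named for the untreated cells, and all libraries come from a single cell line. The labels do not say whether the replicates were separate cultures, so the p-values measure the spread between these libraries.

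Glycolysis splits glucose into pyruvate and yields ATP and NADH, and lactate dehydrogenase then turns pyruvate into lactate and returns the NADH to NAD+. Many tumor cells make lactate even where oxygen is present. Most steps have an isozyme found in nearly all cells and others that are enriched in muscle, brain, liver, blood or sperm. Several of these genes are known targets of the hypoxia-inducible factors (HIF), which bind DNA at sites with the letters ACGTG or GCGTG at their core.

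Of the 30 genes, 24 passed the filter on low counts. With edgeR's quasi-likelihood test and Benjamini-Hochberg adjustment over the 16222 genes tested, 17 of these 24 were higher in the r-CRMP2 libraries at an adjusted p below 0.05, where 28.2% of all genes tested were higher. The 4 that fell were GAPDHS, PGAM2, BPGM and ENO3, where 30.1% of all genes tested were lower. HKDC1, PKLR and LDHD did not pass the test. All r-CRMP2 values lay above all untreated values in the same 17 genes (30.9% of all genes tested) and below them in the same 4 (33.3%), while LDHB and PFKM, the smallest rises among the 17, turned negative when another scaling was used. Past both thresholds, which also ask for a log2 fold change over 1, were 6 genes that rose (HK2, GPI, ALDOA, ALDOC, GAPDH and ENO2; 5.12% of all genes tested) and 1 that fell (GAPDHS; 8.86% of all genes tested). Tested against a fold change of 2, HK2, GAPDH and ENO2 were higher (2.27% of all genes tested) and GAPDHS was lower (2.88%). The median log2 fold change was 0.53 over the 24 genes and -0.03 over all genes tested.

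The scaling between libraries matters for the smaller changes. When counts were scaled by library totals only, without TMM, the median log2 fold change of all genes was -0.34 and that of the 24 enzyme genes was 0.22. Such a change of scaling shifts all genes by about the same amount. The distance of 0.56 between the medians is therefore nearly fixed by construction under either scaling. Under library size alone 14 enzyme genes rose (13.4% of all genes tested) and 5 fell (52.1%). Past both thresholds were then HK2, GAPDH and ENO2 upward (3.01%) and GAPDHS and PGAM2 downward (15.7%). Library totals were 21888530 to 25711353 counts, TMM factors were 1.10 to 1.12 without and 0.878 to 0.922 with r-CRMP2, and in bulk RNA fewer cells of a type and less RNA per cell cannot be told apart.

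Markers of other cell types were examined beside these genes as summed TPM, a unit that scales counts by gene length and so allows genes to be compared. Of 10 ovarian epithelial markers 7 had a mean of at least 1 TPM, with CDH1, WT1 and ESR1 below that, and the list summed to 4207 to 4418 TPM in untreated and 3444 to 3776 TPM in r-CRMP2 libraries. On the TMM scale used for the fold changes the 7 of them that passed the low-count filter summed to 3195 to 3270 CPM untreated and 3207 to 3474 CPM treated, which overlap, so the lower sum holds in TPM only. Of 9 fibroblast markers 8 reached 1 TPM, with FAP below it, and the sum was 254.7 to 292.3 TPM against 185.9 to 198.7 TPM. Most of that difference was COL1A1, a collagen chain, at 159.5 to 190.8 TPM against 94.2 to 108.6 TPM. The fibroblast sum was also lower in normalized CPM (569.2 to 639.9 against 507.6 to 529.2), as was COL1A1 (394.5 to 458.4 against 302.4 to 327.4). COL1A2 overlapped in TPM (17.8 to 20.7 against 18.3 to 20.5) but was higher in normalized CPM (39.4 to 45.4 against 50.6 to 60.2). Of 5 leukocyte markers 2 reached 1 TPM, and the sum was 31.1 to 36.1 TPM against 79.3 to 80.1 TPM. That sum was mostly CD68, a lysosomal protein, while PTPRC, the defining marker of leukocytes, was at most 0.050 TPM in any library. The part of these shifts in the enzyme results was not tested.

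The promoter sequences below are shown because they carry the HIF core in the 6 genes that rose past both thresholds. Each is a stretch of at most 30 bases from the RefSeq promoter windows (build GRCh38.p14), written 5′ to 3′ on the strand of the gene, and capitals mark ACGTG or its complement CACGT, or CACGTG where both strands match. The search covered the 250 bases before the most upstream start of each gene among those windows, on both strands. In the GENCODE annotation the windows of all 6 genes overlap exons of the same gene. The sites therefore need not lie before every start of the gene.
HK2, chr2:74833886-74833914, plus strand: agccacggaccaCACGTcccatctcaggc
HK2, chr2:74834067-74834095, plus strand: aatgggcgtgcgCACGTcactgatccgga
GPI, chr19:34364818-34364846, plus strand: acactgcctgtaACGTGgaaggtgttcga
ALDOA, chr16:30064089-30064117, plus strand: ccttcccctccaCACGTcaacgattctat
ALDOC, chr17:28577118-28577145, minus strand: aagtgcccggCACGTGgtaaagggattg
ALDOC, chr17:28576907-28576935, minus strand: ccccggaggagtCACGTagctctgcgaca
GAPDH, chr12:6535171-6535200, plus strand: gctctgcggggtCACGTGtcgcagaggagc
ENO2, chr12:6914450-6914478, plus strand: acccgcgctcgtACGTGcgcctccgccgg

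ACGTG was found in 12 of the 29 enzyme genes with a window (41.4%), among them all 6 that rose past both thresholds, against 18.6% of 27305 genes with windows of the same length. GCGTG was found in 11 of 29 (37.9%) against 31.9% of all genes, and either core in 18 of 29 (62.1%) against 43.1%. The 27305 genes were not limited to expressed ones. The cores were also present in genes with smaller or opposite changes: LDHA held 3 ACGTG sites and PGK1 held 2. Every gene that fell at an adjusted p below 0.05 held a core. BPGM held 1 ACGTG site, ENO3 held 2 GCGTG sites and PGAM2 held 1. Neither core was found in HK1, PFKM, PFKP, TPI1, PGAM1, PKM or LDHB, which rose with TMM. GAPDHS, which fell most, held no ACGTG and 2 GCGTG sites, shown with GCGTG in capitals.
GAPDHS, chr19:35533276-35533304, plus strand: ccagacggcagtGCGTGgccgtggaacgg
GAPDHS, chr19:35533302-35533330, plus strand: cggtgatgcataGCGTGctgacgtcccat

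These matches are letters in a window, and no binding was measured here. The genes that rose past both thresholds were picked by their measured change, so the share among them is a description. LDHD had no window.

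Hexokinase, which traps glucose in the cell as glucose 6-phosphate, changed its leading isozyme. HK2, the inducible isozyme of muscle, fat and many tumors (chromosome 2, 75059782 to 75120481, hg19 as deposited), stood at 260.9, 237.6 and 225.3 CPM without r-CRMP2 and at 849.1, 878.3 and 904.9 CPM with it, where CPM are counts scaled to a common library size with TMM. The groups were far apart, and the rise was the largest of the 24 genes (log2 fold change 1.86, standard error 0.07, adjusted p = 1.09e-13, edgeR). HK1, the isozyme of most tissues and the main one in brain (chromosome 10, 71029756 to 71161638), went from 228.3, 199.3 and 192.3 CPM to 307.8, 324.7 and 347.6 CPM. It rose as well, by less (log2 fold change 0.66, standard error 0.09, adjusted p = 2.07e-07, edgeR).

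As a share of the hexokinase TPM, HK2 made up 42.1%, 43.1% and 42.7% without and 63.7%, 63.3% and 62.4% with r-CRMP2. HK1 was therefore the more abundant per length in all 3 untreated libraries (57.1% ± 0.522, SD, n = 3) and HK2 in all 3 treated ones (63.1% ± 0.679, SD, n = 3). An exact two-sided permutation test of the HK2 share gave p = 0.1, the smallest that 3 against 3 libraries allow, and 0.133 after adjustment over the 8 leading isozymes compared. The order rests on the length scaling in the untreated cells: HK2 has the longer transcript, and its raw counts of 7256, 5831 and 6164 already exceeded the 6349, 4890 and 5261 of HK1. The summed hexokinase counts rose by 1.43 on the log2 scale (standard error 0.08, adjusted p = 4.40e-12, edgeR). HKDC1, a hexokinase of low abundance, was at 0.396, 0.407 and 0.585 CPM untreated and at 0.140, 0.657 and 0.261 CPM treated, and these values overlapped. HK3, the hexokinase of white blood cells, had 0 to 5 counts in any library and was not tested.

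GPI, which converts glucose 6-phosphate to fructose 6-phosphate (chromosome 19, 34855645 to 34893318), rose from 1533, 1498 and 1356 CPM to 2824, 3025 and 3056 CPM. Its values did not overlap between the groups (log2 fold change 1.02, standard error 0.06, adjusted p = 2.87e-10, edgeR). This lies just over the threshold of 1 and came to 0.71 with library size alone.

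Phosphofructokinase commits the sugar to glycolysis and is the main point of control in the pathway, and none of its genes reached the log2 fold change of 1. PFKP, the platelet isozyme, went from 555.6, 534.2 and 488.4 CPM to 741.7, 758.0 and 799.2 CPM, and rose by 0.54 on the log2 scale (adjusted p = 8.16e-07, edgeR). The liver isozyme PFKL (194 ± 11.5 to 252 ± 11.9 CPM, SD, n = 3) and the muscle isozyme PFKM (208 ± 5.79 to 243 ± 3.77 CPM, SD, n = 3) had log2 fold changes of 0.38 and 0.22, both past the threshold on adjusted p. With library size alone PFKL was at 0.066 (adjusted p = 0.339, edgeR) and PFKM turned to -0.089 (adjusted p = 0.168, edgeR). The direction of PFKM thus depends on the scaling.

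The make-up of the phosphofructokinase step does not depend on that scaling. The TPM share of PFKP was 57.2%, 55.2% and 54.1% in untreated and 59.6%, 58.6% and 60.5% in r-CRMP2 libraries, and the share of PFKM was 20.6%, 21.3% and 23.5% against 19.0%, 18.9% and 18.2%. Neither overlapped between the groups (exact permutation p = 0.1 each), while the share of PFKL did (22.7% ± 0.707 against 21.7% ± 0.671, SD, n = 3).

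Aldolase splits fructose 1,6-bisphosphate into the triose phosphates. ALDOA, the isozyme of muscle and most other tissues (chromosome 16, 30064411 to 30081741), rose from 2850, 2725 and 2485 CPM to 5200, 5820 and 5613 CPM (log2 fold change 1.05, standard error 0.08, adjusted p = 4.05e-10, edgeR). ALDOC, the brain isozyme (chromosome 17, 26900133 to 26903951), rose from 134.7, 118.4 and 111.6 CPM to 234.0, 268.8 and 258.5 CPM (log2 fold change 1.06, standard error 0.10, adjusted p = 6.46e-10, edgeR). The isozymes moved side by side: ALDOA made up 91.6%, 92.2% and 91.9% of the aldolase TPM untreated and 91.9%, 91.7% and 91.8% treated. These shares overlapped (exact permutation p = 0.6), and the ratio of ALDOC to ALDOA differed by 0.02 on the log2 scale between the groups. With library size alone the log2 fold changes were 0.73 and 0.75. TPI1, which interconverts the triose phosphates, rose from 1024, 967 and 934 CPM to 1404, 1637 and 1528 CPM (log2 fold change 0.64, adjusted p = 1.71e-07, edgeR).

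GAPDH, which makes the NADH of the pathway and is often used as a reference gene (chromosome 12, 6643571 to 6647541), stood at 7533, 6803 and 6182 CPM untreated and at 16239, 18869 and 17407 CPM treated. All treated libraries were above all untreated ones (log2 fold change 1.36, standard error 0.10, adjusted p = 6.74e-11, edgeR), and with library size alone the log2 fold change was 1.04. GAPDH took 0.693% to 0.825% of all counts in an untreated library and 1.49% to 1.66% in an r-CRMP2 library.

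GAPDHS, the sperm isozyme (chromosome 19, 36024314 to 36036221), went the other way. It fell from 2.80, 3.22 and 2.78 CPM to 0.562, 0.404 and 0.610 CPM (log2 fold change -2.46, standard error 0.17, adjusted p = 3.84e-07, edgeR). It had been only 0.055% of the step's TPM in untreated cells. None of 9 germ cell markers reached a mean of 1 TPM, and their sum was at most 1.14 TPM in any library. The row of TMEM147-AS1, an antisense RNA that covers part of GAPDHS on the opposite strand, fell as well, from 98, 114 and 99 counts to 32, 16 and 11 counts (log2 fold change -2.08, adjusted p = 5.17e-06, edgeR). The strand setting of the counting is not given, so reads of the pair cannot be told apart.

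PGK1, which makes the first ATP of the pathway (chromosome X, 77359666 to 77382324), rose from 2161, 1902 and 1737 CPM to 3601, 4032 and 3842 CPM. The change, 0.98 on the log2 scale (standard error 0.10, adjusted p = 3.17e-09, edgeR), fell just short of the threshold of 1, and GPI at 1.02 was just past it. PGK1 reached the threshold with RLE size factors, with DESeq2, without untreated replicate 1 and without r-CRMP2 replicate 1, whereas GPI and ALDOA lost it without untreated replicate 3. PGK2, the intronless sperm gene, had 0 to 2 counts in any library.

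Phosphoglycerate mutase moves the phosphate before the last ATP-making step. PGAM1, the widespread isozyme, rose from 620.0, 587.7 and 549.5 CPM to 783.9, 891.9 and 850.2 CPM (log2 fold change 0.52, adjusted p = 2.01e-06, edgeR). PGAM2, the muscle isozyme, fell from 1.01, 1.47 and 0.987 CPM to 0.609, 0.809 and 0.479 CPM. The groups did not overlap, but the call was weak (log2 fold change -0.87, standard error 0.26, adjusted p = 0.0431, edgeR), and it was lost with DESeq2 (adjusted p = 0.0851), with the low-count filter removed (0.0634, edgeR) and in 5 of the 6 fits that leave out a library (0.0564 to 0.193, edgeR), all but that without r-CRMP2 replicate 2. ENSG00000239775.1, a row that covers part of PGAM2 on the opposite strand, went from 23, 17 and 18 counts to 9, 12 and 4 counts. That row did not pass the test (log2 fold change -0.88, adjusted p = 0.0964, edgeR). As for GAPDHS, reads of the pair cannot be told apart. PGAM4, a gene that lies inside ATP7A on the opposite strand, had 1 to 6 counts and was not tested.

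BPGM, which diverts the pathway to 2,3-bisphosphoglycerate and is abundant in red blood cells, fell from 11.3, 12.3 and 12.6 CPM to 7.40, 8.39 and 6.79 CPM (log2 fold change -0.68, standard error 0.10, adjusted p = 7.36e-05, edgeR). None of 4 erythroid markers reached a mean of 1 TPM, and their sum was at most 0.595 TPM in any library.

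Enolase, which forms phosphoenolpyruvate, had members that moved in opposite directions. ENO1, the main isozyme (chromosome 1, 8921059 to 8939151), rose from 4958, 4569 and 4309 CPM to 6433, 6909 and 6942 CPM (log2 fold change 0.55, standard error 0.07, adjusted p = 1.48e-06, edgeR). ENO2, known as neuron-specific enolase (chromosome 12, 7023614 to 7032859), rose from 209.0, 200.7 and 166.8 CPM to 600.0, 701.3 and 658.3 CPM (log2 fold change 1.77, standard error 0.12, adjusted p = 2.29e-12, edgeR). ENO3, the muscle isozyme (chromosome 17, 4854384 to 4860426), fell from 54.0, 54.6 and 55.2 CPM to 41.2, 41.9 and 42.5 CPM (log2 fold change -0.38, standard error 0.02, adjusted p = 5.89e-05, edgeR).

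ENO2 thereby went from 5.24%, 5.44% and 4.81% of the enolase TPM to 10.99%, 11.9% and 11.2%, and ENO3 from 2.15%, 2.35% and 2.53% to 1.20%, 1.12% and 1.14%. ENO1 stayed the leading isozyme at 92.5% ± 0.245 untreated and 87.5% ± 0.426 treated (SD, n = 3; exact permutation p = 0.1, adjusted 0.133). Of 5 neuronal markers only SNAP25 reached 1 TPM, and the list summed to 5.60 to 5.72 TPM untreated and 3.71 to 4.58 TPM treated. In normalized CPM, SNAP25 overlapped between the groups (6.04 to 6.36 against 5.21 to 7.05). None of 6 skeletal muscle markers reached a mean of 1 TPM, and their sum was at most 0.814 TPM in any library.

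Pyruvate kinase makes pyruvate and the last ATP. PKM, whose splice forms M1 and M2 cannot be told apart in counts per gene, rose from 4354, 3958 and 3810 CPM to 5507, 5765 and 5928 CPM (log2 fold change 0.50, standard error 0.07, adjusted p = 3.74e-06, edgeR). PKLR, the isozyme of liver and red blood cells, was at 0.932 ± 0.238 and 0.867 ± 0.328 CPM (SD, n = 3) and did not pass the test (adjusted p = 0.796, edgeR). PKM made up over 99% of the step in every library.

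Lactate dehydrogenase is a tetramer of A chains from LDHA, which dominate in muscle, and B chains from LDHB, which dominate in heart. LDHA (chromosome 11, 18415936 to 18429765) rose from 2112, 1898 and 1783 CPM to 2777, 3162 and 2847 CPM (log2 fold change 0.60, standard error 0.09, adjusted p = 1.06e-06, edgeR). LDHB (chromosome 12, 21788276 to 21810789) was at 690.5, 658.3 and 688.6 CPM untreated and at 722.5, 813.4 and 754.0 CPM treated. Its log2 fold change was 0.17 with TMM (adjusted p = 0.0290, edgeR) but -0.14 with library size alone (adjusted p = 0.0231, edgeR), so the direction of LDHB depends on the scaling.

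The balance between the chains shifted whatever the scaling. LDHA was 65.7%, 64.4% and 61.8% of the L-lactate dehydrogenase TPM in untreated and 70.6%, 70.9% and 70.3% in r-CRMP2 libraries, and these did not overlap (exact permutation p = 0.1, adjusted 0.133). The testis gene LDHC had 0 or 1 count in every library, LDHAL6A had 0 to 6 and LDHAL6B, which lies inside MYO1E on the opposite strand, had 1 to 14, and none was tested. LDHD, the mitochondrial enzyme for D-lactate, was at 1.11 ± 0.317 and 0.834 ± 0.325 CPM (SD, n = 3) and did not pass the test (adjusted p = 0.352, edgeR).

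**Figure D1:**
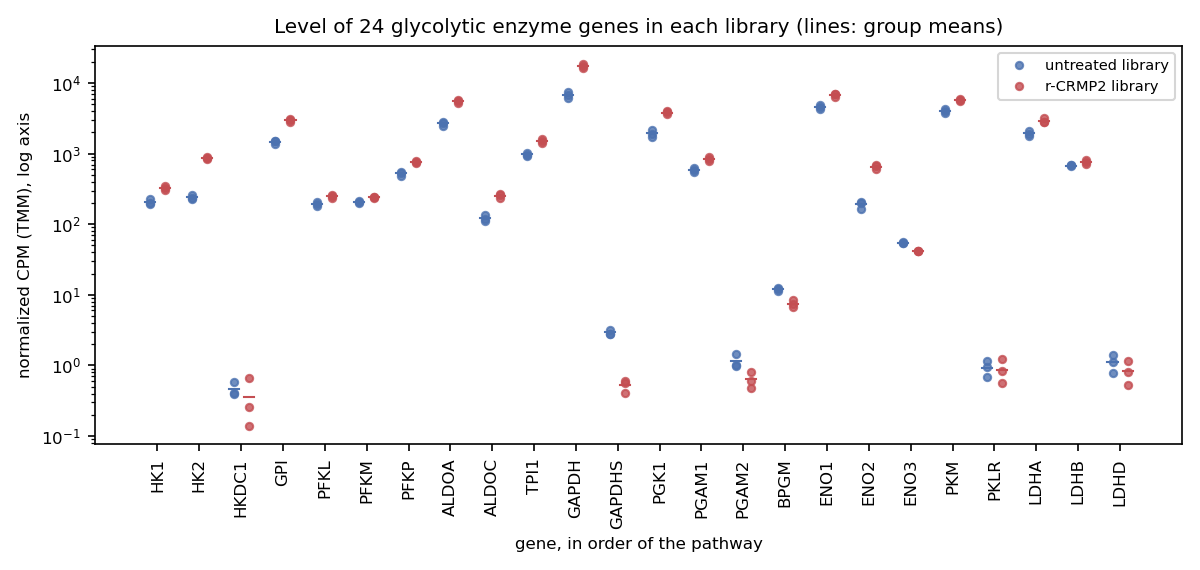
TMM-normalized CPM (log axis) of the 24 tested enzyme genes in order of the pathway, with a point for each of 3 untreated (blue) and 3 r-CRMP2 (red) libraries and a line at each group mean. The red points lie above the blue ones in 17 genes (among them LDHB and PFKM, which flip with library size alone) and below them in GAPDHS, PGAM2, BPGM and ENO3.

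**Figure D2:**
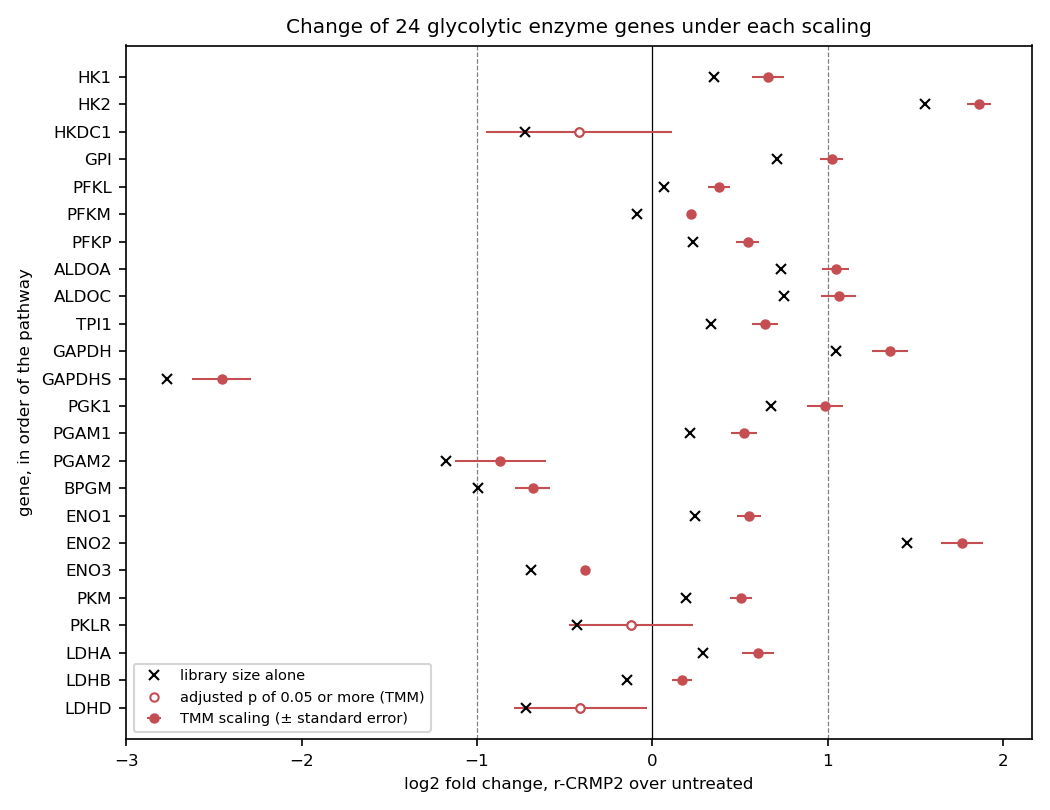
Log2 fold change of r-CRMP2 over untreated for each tested gene with TMM scaling (red, bar = standard error, open where the adjusted p is 0.05 or more) and with library size alone (cross), and dashed lines at the threshold of 1 in each direction. Every cross lies to the left of its red point, and those of PFKM and LDHB lie on the other side of 0.

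**Figure D3:**
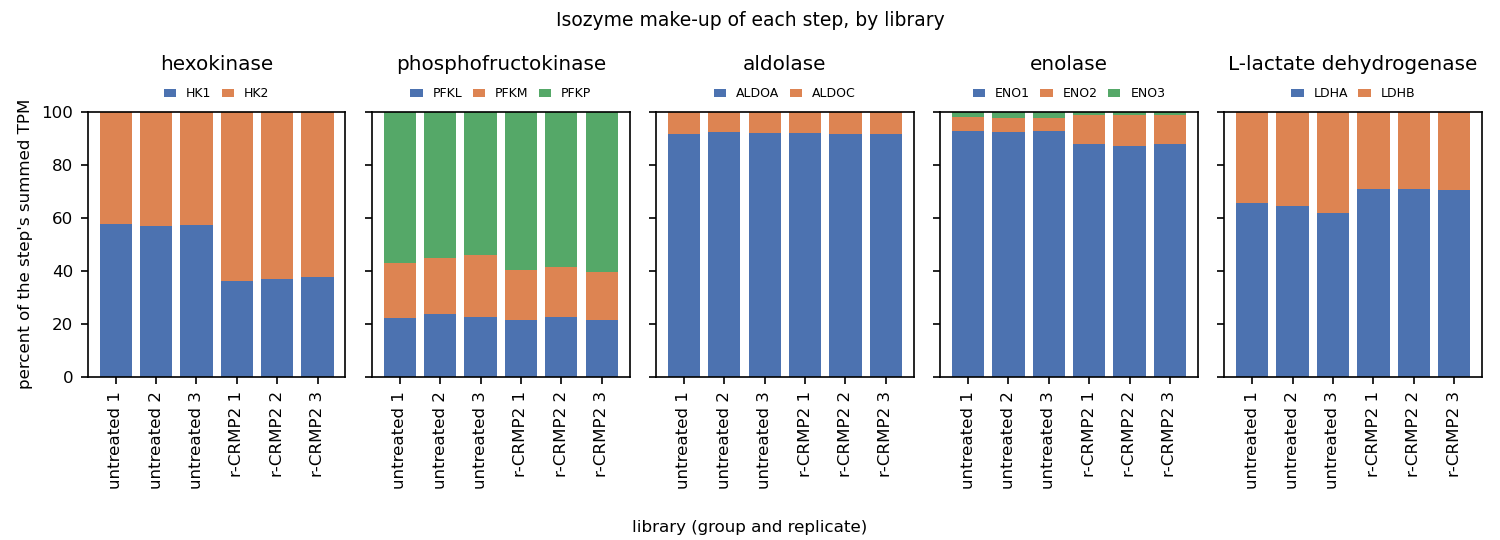
Percent of the summed TPM of a step held by each isozyme, with a stacked bar for each library; isozymes under 1% in every library are not drawn. The HK1 part shrinks from 57.1% to 36.8% on average, the ENO2 part grows from 5.16% to 11.3%, and the aldolase bars are alike in both groups.

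Summed over the isozymes of a step, 11 of 13 steps rose (28.2% of all genes tested in that fit) and 1, BPGM, fell (30%). Hexokinase, GAPDH, aldolase and GPI led, with log2 fold changes of 1.43, 1.36, 1.05 and 1.02. Phosphoglycerate kinase followed with 0.98, and the others were triosephosphate isomerase (0.64), enolase (0.62), phosphoglycerate mutase (0.52), pyruvate kinase (0.50), L-lactate dehydrogenase (0.50) and phosphofructokinase (0.44). With library size alone these 11 remained past the threshold on adjusted p, with log2 fold changes from 0.13 for phosphofructokinase to 1.12 for hexokinase.

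Together the 30 genes held 2.77%, 2.62% and 2.42% of all TPM without r-CRMP2 and 3.95%, 4.06% and 4.10% with it (2.60% ± 0.177 against 4.04% ± 0.0798, SD, n = 3). GAPDH and GAPDHS accounted for 63.7% of that rise in summed TPM, aldolase for 9.95%, phosphoglycerate kinase for 7.81% and enolase for 6.14%. Hexokinase, with the largest change on the log2 scale, accounted for 1.30%, and its summed level of 194.4 TPM in untreated cells was the lowest of the 11 steps that rose.

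Across the 8 steps with isozymes to compare, the TPM share of the leading isozyme did not overlap between the groups in 6 (HK2, PFKP, GAPDH, PGAM1, ENO1 and LDHA). Each was at the smallest exact permutation p of 0.1 and an adjusted 0.133. The share overlapped for ALDOA and PKM. A lack of overlap was common in these data: in CPM, 30.9% of all genes tested lay wholly above and 33.3% wholly below the untreated values. That background is for single genes, and none was computed for shares or ratios. The GAPDH and PGAM1 shares differed by only 0.0509 and 0.296 percentage points. Of 11 ratios of a minor to the leading isozyme, 9 did not overlap, again at an exact permutation p = 0.1 each (adjusted 0.122). No share or ratio could have passed 0.05 with this number of libraries. The largest differences in log2 ratio were those of GAPDHS to GAPDH (-10.8 untreated, -14.7 treated), HKDC1 to HK2 (-8.10 and -10.6), PGAM2 to PGAM1 (-7.70 and -9.10), ENO2 to ENO1 (-4.16 and -2.95) and HK1 to HK2 (0.42 and -0.78), with low counts behind GAPDHS, HKDC1 and PGAM2.

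Some rows share sequence or position with the enzyme genes. Of 77 pseudogenes named after a member, 7 had a mean of at least 10 counts. GAPDHP1 (log2 fold change 1.35, adjusted p = 3.03e-08, edgeR) and HK2P1 (1.77, adjusted p = 3.32e-08, edgeR) rose by amounts close to those of GAPDH and HK2, and held 0.103% and 0.841% of the counts of those genes. TPI1P2 fell (-2.05, adjusted p = 0.00195, edgeR), and GAPDHP62, LDHAP3, LDHAP4 and PGK1P1 did not pass the test. Adding the pseudogene counts to their genes changed no call among the 24.

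Overlapping rows did not always follow their neighbors. HK2-DT, listed as ENSG00000272711.1 and lying on the opposite strand over the start of HK2, fell from 21, 36 and 52 counts to 2, 0 and 3 counts (log2 fold change -4.05, adjusted p = 1.13e-05, edgeR) while HK2 rose. SPSB2, which overlaps the end of TPI1 by 12 bases on the opposite strand, fell (log2 fold change -1.04, adjusted p = 9.19e-07, edgeR) while TPI1 rose. A row inside an intron of ENO1 on the same strand, ENSG00000236269.1, rose from 50, 43 and 46 counts to 134, 155 and 198 counts. This rise of 2.12 on the log2 scale (adjusted p = 8.26e-09, edgeR) was above the 0.55 of ENO1, and the difference was not tested. A row antisense to the end of GAPDH, ENSG00000269968.1, rose by 1.28 on the log2 scale (adjusted p = 3.44e-09, edgeR), close to GAPDH itself. The library kit named in the methods (NEBNext Ultra RNA) does not mark strand, so such reads cannot be divided between the partners.

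**Figure D4:**
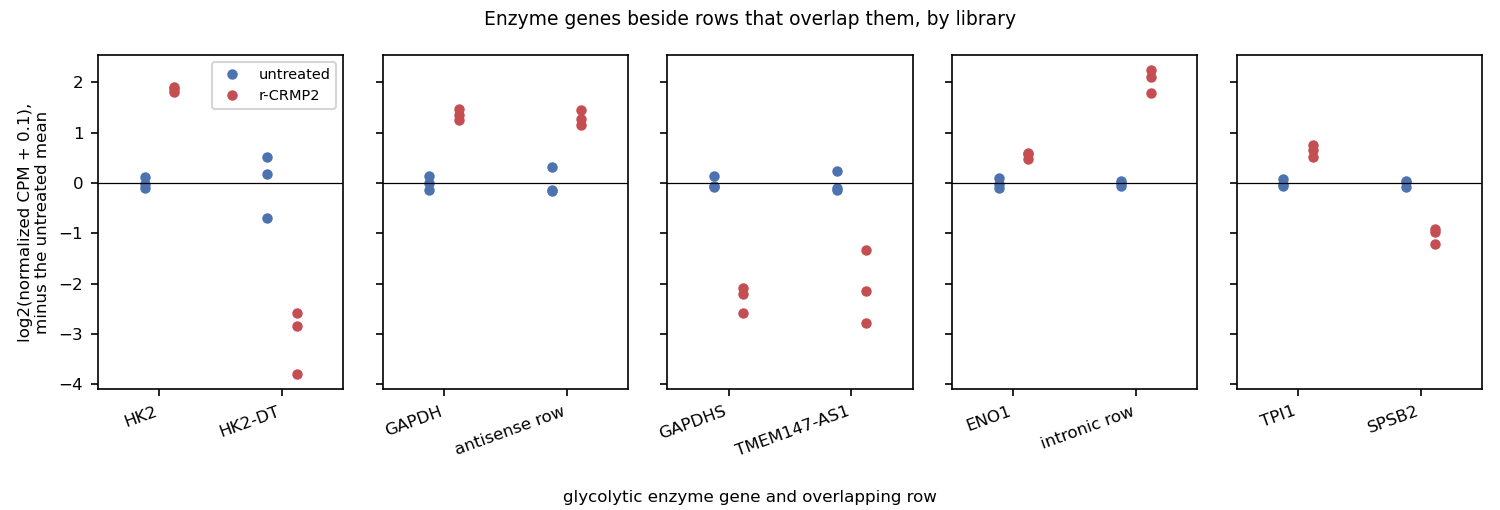
Log2 of normalized CPM plus 0.1, minus the untreated mean, for 5 enzyme genes (left in each panel) and a row that overlaps each (right), with a point for each untreated (blue) and r-CRMP2 (red) library. The treated points of HK2 and HK2-DT and of TPI1 and SPSB2 lie on opposite sides of 0, those of GAPDH and its antisense row are alike, and the intronic row lies above ENO1.

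The genes around the pathway gave a less uniform picture. Of 32 transporters, regulators and neighboring enzymes listed, 30 were tested, 16 rose (28.2% of all genes tested), 7 fell (30.1%) and 7 did not pass, with a median log2 fold change of 0.29. Under library size alone 12 rose (13.4%) and 13 fell (52.1%). Past both thresholds upward were the glucose transporters SLC2A3 (log2 fold change 2.84) and SLC2A1 (2.02) and PFKFB3, which makes the activator of phosphofructokinase (1.54). PDK1, which inhibits pyruvate dehydrogenase (1.46), and the HIF subunit EPAS1 (1.08, but 0.77 with library size alone) were also past both upward. The HIF subunit HIF1A rose by 0.49 on the log2 scale (adjusted p = 2.13e-06, edgeR), or by 0.18 with library size alone. TIGAR, which lowers the phosphofructokinase activator, fell from 12.5 ± 1.18 to 3.84 ± 0.288 CPM (SD, n = 3; log2 fold change -1.70, adjusted p = 3.64e-09, edgeR). SLC2A3 went from 383.7 ± 49.2 to 2748 ± 364.5 CPM (SD, n = 3), a larger change than that of any enzyme gene among the 24.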

How the data were processed

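Poly(A) RNA of 3 untreated and 3 r-CRMP2 libraries had been sequenced. The authors deposited, for each library, read counts per gene without normalization and TPM values. The deposited TPM follow from the counts and gene lengths (largest difference 4.72e-06). HISAT2 and hg19 are named in the submitters' processing notes, while the counting tool, the annotation and the strand setting are not given in the sources used here.

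Counts were compared with edgeR 4.0.16 (quasi-likelihood test, TMM, filterByExpr, R 4.3.3), with Benjamini-Hochberg adjustment over 16222 genes and thresholds of 0.05 (adjusted p) and 1 (log2 fold change). Standard errors come from the spread of log2 CPM between libraries (prior count 2). TPM served only for levels between genes, isozyme shares and marker sums. Shares were compared by exact two-sided permutation tests (scipy 1.17.1). On simulated counts, 62 of 97 genes changed by 0.5 and 83 of 98 changed by 1 on the log2 scale were called, with 8 false calls among 15746. The simulation changed few genes, up and down in equal number, and did not have the difference in TMM factors between the groups. False calls in that case were not examined. Replicates of a group differed by more than sampling noise (chi-square per degree of freedom 3.89 to 11.4), and none was a duplicate.

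All members are named, as are other pathway genes past both thresholds, HIF1A, pseudogenes with at least 10 counts on average and the main overlapping genes. Members and lists were chosen with earlier results of these data known. Alternatives were RLE, library size alone, DESeq2 1.42.0, other count filters, a test against a fold change of 2, added pseudogene counts, raw-count shares, a replicate block and leaving out each library.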

Additional observations from a re-analysis of the deposited data

How the results depend on the processing

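Across 37 values of single genes and steps, 31 of the alternative fits lost a call, 2 reversed a called value and 431 changed no call. Among the 431, PKLR, which was not called, changed sign in 2 (0.12 without r-CRMP2 replicate 1 and 0.077 without untreated replicate 3, against -0.12). Of the summary values, 149 kept theirs, 12 moved and 1 reversed. With library size alone the median log2 fold change of the enzyme genes was 0.22 in place of 0.53, 3 genes in place of 6 rose and 2 in place of 1 fell past both thresholds, and LDHB (-0.14) and PFKM (-0.089) reversed. Tested against a fold change of 2, which asks for more by construction, 3 genes were higher (2.27% of all genes tested) and 1 was lower (2.88%). With at least 10 counts in every library, 0 fell past both thresholds, because GAPDHS was not tested. Leaving out each library gave a median of 0.49 to 0.58, 16 to 18 genes higher and 3 to 4 lower, 4 to 7 higher and 1 to 2 lower past both thresholds, the 2 (GAPDHS and PGAM2) without r-CRMP2 replicate 2, where LDHAL6B also passed the low-count filter and both thresholds upward. In those fits 4163 to 4568 of the 16509 to 16848 genes tested were higher and 4332 to 4696 were lower. Past both thresholds were 803 to 927 upward and 1386 to 1621 downward, and the median over all genes was -0.034 to -0.022. Without untreated replicate 3, GPI and ALDOA fell below the log2 fold change of 1, which left 4 genes.

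The share of ALDOA differed by -0.0892 percentage points (range -0.259 to 0.0555 when a library was left out, reversed without untreated replicate 2), and this share overlapped between the groups. In shares of raw counts the differences were -4.24 for ENO1, 0.0401 for GAPDH, 19.0 for HK2 and 0.119 for PGAM1, against -4.99, 0.0509, 20.5 and 0.296 in TPM, because counts are not scaled by gene length.

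LDHB lost its call without the low-count filter (adjusted p = 0.0640, edgeR), and without untreated replicate 2 (0.142), untreated replicate 3 (0.0610) or r-CRMP2 replicate 3 (0.0572). In a fit with a replicate block, 16 genes rose and 3 fell, 6 and 1 of them past both thresholds, with a median of 0.53, and LDHB (adjusted p = 0.0748, edgeR) and PGAM2 (0.0558) lost their calls. Over all 16222 genes tested in that fit, 4456 were higher and 4774 lower, 819 and 1437 of them past both thresholds. The deviations of libraries with the same number correlated at -0.02, 0.0038 and -0.03, so the numbers do not pair the libraries. Depth limits the genes with few counts (GAPDHS, PGAM2, HKDC1, PKLR and LDHD, and the 6 not tested).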
